A study of Mus musculus with 6 samples.

Results

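The genes described here are 10 markers of vascular endothelial cells, namely Pecam1, Cdh5, Emcn, Tie1, Cldn5, Egfl7, Esam, Erg, Sox17 and Plvap. They were chosen by name and taken by GENCODE symbol from the 54232 genes of a deposited RNA-seq count table. The libraries are 3 labelled WT and 3 labelled Pbrm1 cKO. They were made from primary uterine stromal cells of female mice aged 8 to 12 weeks on day 4 of pregnancy or pseudopregnancy. Pbrm1 encodes a subunit of the PBAF form of the SWI/SNF chromatin remodeling complex. According to the study's methods, the controls labelled WT carried floxed alleles (Pbrm1 fl/fl) and the knockout mice were Pbrm1 fl/fl with a PR-IRES-cre allele (PR IRES-cre/+), so both groups carried the floxed gene, and the Cre allele was present in the knockout group alone. Cre was driven from the progesterone receptor locus, which restricts deletion to cells that have expressed that receptor. The labels describe the animals both as mated for pregnancy and as pseudopregnant. Each preparation pooled 5 to 10 uterine horns, which were minced and digested with enzymes, and the filtered cells were left to attach in culture dishes for several hours ahead of RNA isolation. The cells were not sorted, and no library was made from purified endothelial cells.

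Endothelial cells line blood vessels and are held together by junctional adhesion proteins such as VE-cadherin and claudin 5. Their identity is maintained by transcription factors of the ETS family, of which ERG is one, and of the SOX F family, which includes SOX17. The endometrium remodels its vessels in each cycle and around implantation, when permeability of the stromal capillaries rises, and a digest of the uterine wall can carry vessel cells along with the stroma.

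Library totals ranged from 13253575 to 18338667 counts. Pbrm1 itself fell from 1472 ± 178 to 436 ± 33.9 normalized counts (SD, n = 3 per group; log2 fold change -1.76, SE 0.13, DESeq2 adjusted p = 5.19e-40). The labelled cell type was matched by 14 stromal marker genes, which summed to between 93315 and 139142 normalized counts in each library. The 10 endothelial markers summed to between 1260 and 4741, and each of them had counts in every library. WT replicate 1 stood apart from WT replicates 2 and 3 for 9 of the 10 markers, and the tests of the markers are therefore given with and without it. In bulk RNA, fewer endothelial cells, less RNA per endothelial cell and a change of the same gene in other cells of the digest cannot be told apart.

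Normalized counts, the counts divided by DESeq2 size factors, were used to compare 1 gene between libraries. Pecam1 (CD31, an adhesion molecule at contacts between endothelial cells, also found on leukocytes and platelets) lies at chr11:106654217-106750628 (GRCm38, minus strand). It had 137, 825 and 638 normalized counts in WT replicates 1 to 3, against 298, 332 and 262 in Pbrm1 cKO replicates 1 to 3. WT replicate 1 lay below every Pbrm1 cKO library, and WT replicates 2 and 3 lay above them. The log2 fold change of Pbrm1 cKO over WT was -0.84 (SE 0.70, DESeq2 adjusted p = 0.403), and it was -1.30 (SE 0.16, DESeq2 adjusted p = 8.55e-15) without WT replicate 1.

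Cdh5 (VE-cadherin, the cadherin of endothelial adherens junctions; chr8:104101625-104144511, plus strand) followed another order. Its normalized counts were 774, 713 and 677 in the WT libraries against 190, 192 and 201 in the Pbrm1 cKO libraries. Here WT replicate 1 held the highest value, 1.11 times the mean of the other WT libraries, and the groups did not overlap. Cdh5 fell by 1.89 on the log2 scale (SE 0.13, DESeq2 adjusted p = 2.4e-46), and its log2 fold change was -1.84 (SE 0.14, DESeq2 adjusted p = 1.4e-38) without WT replicate 1. It was the only one of the 10 markers that was not lower in WT replicate 1 than in both other WT libraries.

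Esam (an immunoglobulin-family adhesion molecule of endothelial tight junctions, also present on platelets; chr9:37528078-37538319, plus strand) had 143, 408 and 360 normalized counts in WT against 217, 227 and 192 in Pbrm1 cKO. Its log2 fold change was -0.52 (SE 0.30, DESeq2 adjusted p = 0.195), and -0.86 (SE 0.16, DESeq2 adjusted p = 1.25e-06) without WT replicate 1. As for Pecam1, the library with the lowest Esam level was WT replicate 1. Cldn5 (claudin 5, a tight junction protein most abundant in brain endothelium; chr16:18776847-18778262, plus strand) was close to the limit of these libraries, with 4, 14 and 9 raw counts in WT against 11, 6 and 6 in Pbrm1 cKO. The groups overlapped with and without WT replicate 1, and its log2 fold change of -0.48 (SE 0.75, DESeq2 adjusted p = 0.702) has too wide an error at this depth to give a direction.

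Emcn (endomucin, a sialomucin of capillary and venous endothelium; chr3:137341067-137432185, plus strand) showed the lowest log2 fold change of the 10 markers. It had 274, 1615 and 1327 normalized counts in WT against 267, 284 and 243 in Pbrm1 cKO. The value in WT replicate 1 fell inside the range of the Pbrm1 cKO libraries. Emcn fell by 2.02 on the log2 scale (SE 0.69, DESeq2 adjusted p = 0.0148), and its log2 fold change was -2.47 (SE 0.13, DESeq2 adjusted p = 4.39e-74) without WT replicate 1. With WT replicate 1 kept and any 1 of the other 5 libraries left out, Emcn did not pass (DESeq2 adjusted p from 0.0716 to 0.118). Plvap (the protein of the diaphragms of fenestrae and caveolae; chr8:71497765-71511752, minus strand) had 35.3, 310 and 255 normalized counts in WT against 117, 123 and 114 in Pbrm1 cKO. WT replicate 1 held 0.12 times the mean of WT replicates 2 and 3, the smallest such ratio of the 10 markers. The log2 fold change of Plvap was -0.76 (SE 0.81, DESeq2 adjusted p = 0.542), and -1.25 (SE 0.19, DESeq2 adjusted p = 8.64e-10) without WT replicate 1.

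Tie1 (an orphan receptor tyrosine kinase that modulates angiopoietin signaling through Tek; chr4:118471191-118490061, minus strand) had 29.9, 168 and 166 normalized counts in WT against 56.2, 57.5 and 71.3 in Pbrm1 cKO. The 2 similar WT libraries were both above all Pbrm1 cKO libraries, and WT replicate 1 was below them. Its log2 fold change was -0.98 (SE 0.47, DESeq2 adjusted p = 0.101), and -1.44 (SE 0.24, DESeq2 adjusted p = 4.7e-08) without WT replicate 1. Egfl7 (a secreted protein of the vessel wall whose gene hosts the microRNA miR-126; chr2:26580014-26593120, plus strand) had 121, 549 and 446 normalized counts in WT against 87.8, 119 and 109 in Pbrm1 cKO. The groups were separated by a narrow margin, from 119 in Pbrm1 cKO replicate 2 to 121 in WT replicate 1. Egfl7 fell by 1.82 on the log2 scale (SE 0.62, DESeq2 adjusted p = 0.0132), and its log2 fold change was -2.24 (SE 0.19, DESeq2 adjusted p = 7.11e-31) without WT replicate 1. Leaving out any 1 of the other 5 libraries lost this call too (DESeq2 adjusted p from 0.0568 to 0.106). Exons of Egfl7 overlap those of Mir126a and Gm20532 on the same strand, and reads assigned to more than 1 gene are not counted by the default of the counting program.

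Both transcription factors among the markers had few counts. Erg (an ETS factor; chr16:95360204-95530365, minus strand) had 12.8, 44.4 and 53.0 normalized counts in WT against 24.7, 19.2 and 22.5 in Pbrm1 cKO, with a log2 fold change of -0.73 (SE 0.50, DESeq2 adjusted p = 0.291). Sox17 (a SOX F factor of arterial endothelium, also expressed by endometrial epithelium; chr1:4490931-4497354, minus strand) had 28.9, 94.3 and 81.1 in WT against 46.4, 52.7 and 39.4 in Pbrm1 cKO, with a log2 fold change of -0.56 (SE 0.40, DESeq2 adjusted p = 0.322). Both were lowest in WT replicate 1, and in both WT replicates 2 and 3 exceeded every Pbrm1 cKO library. Without WT replicate 1 the log2 fold change was -1.14 for Erg (SE 0.41, DESeq2 adjusted p = 0.0184) and -0.92 for Sox17 (SE 0.31, DESeq2 adjusted p = 0.00982).

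**Figure D1:**
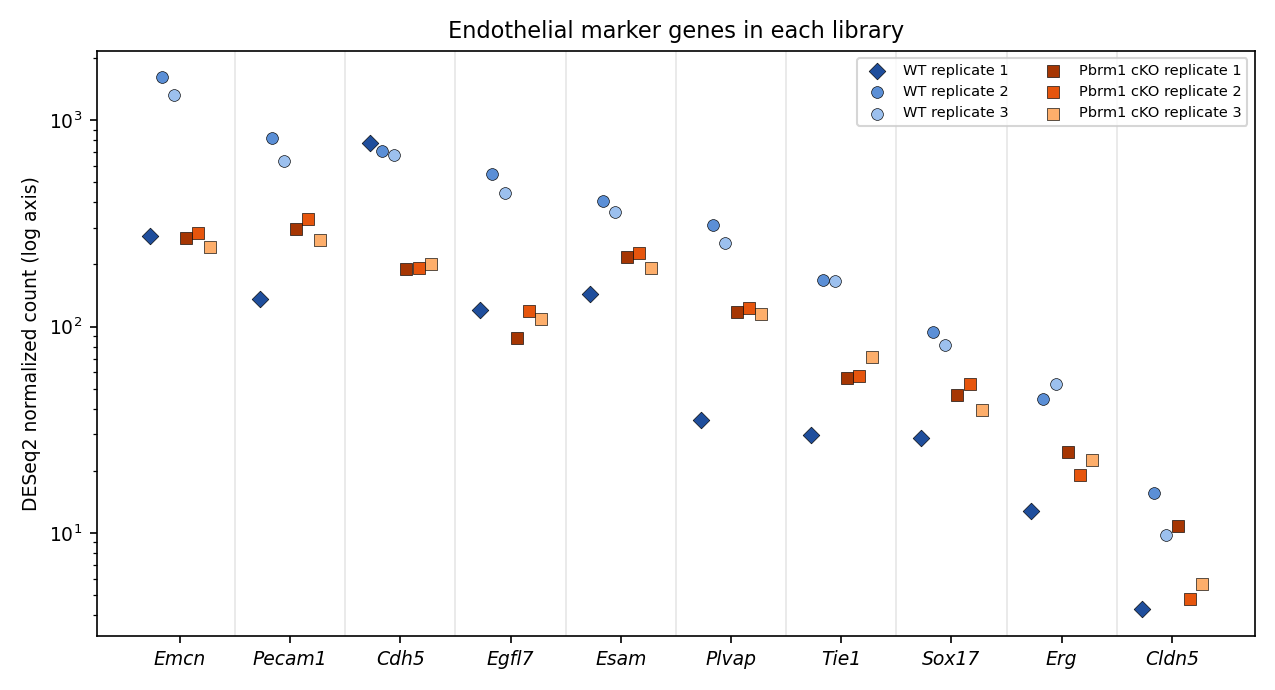
DESeq2 normalized count (log axis) of each of the 10 endothelial markers, 1 point per library, with genes ordered by their mean in WT replicates 2 and 3. WT replicate 1 (diamond) lies below both other WT libraries for every gene except Cdh5, where it is highest at 774, and for Plvap it is at 35.3 against 310 and 255.

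Across the 10 markers, 3 (Cdh5, Emcn and Egfl7) were lower in Pbrm1 cKO at a DESeq2 adjusted p of 0.05. Of all 17474 genes tested, 15.2% were called lower and 15.9% higher. No marker was called higher by DESeq2, edgeR or limma, and all 10 DESeq2 log2 fold changes were below 0, with a median of -0.80 against -0.00 over all genes tested, whereas the median of the markers was 0.17 when size factors were taken from other endothelial genes. WT and Pbrm1 cKO libraries did not overlap for 2 of the 10 markers (Cdh5 and Egfl7), against 48.6% of all tested genes. Without WT replicate 1, 9 of the 10 markers were lower (all but Cldn5) and 0 were higher, also at an unadjusted p under 0.05, with a median of -1.28. WT replicate 1 was set apart because these markers were low in it, and leaving it out moves them towards lower values in Pbrm1 cKO, so the counts and p-values without it are not independent of that choice. In that comparison 17.2% of the 15502 tested genes were called lower and 18.3% higher. The groups then did not overlap for 9 markers, against 63.7% of all tested genes.

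**Figure D2:**
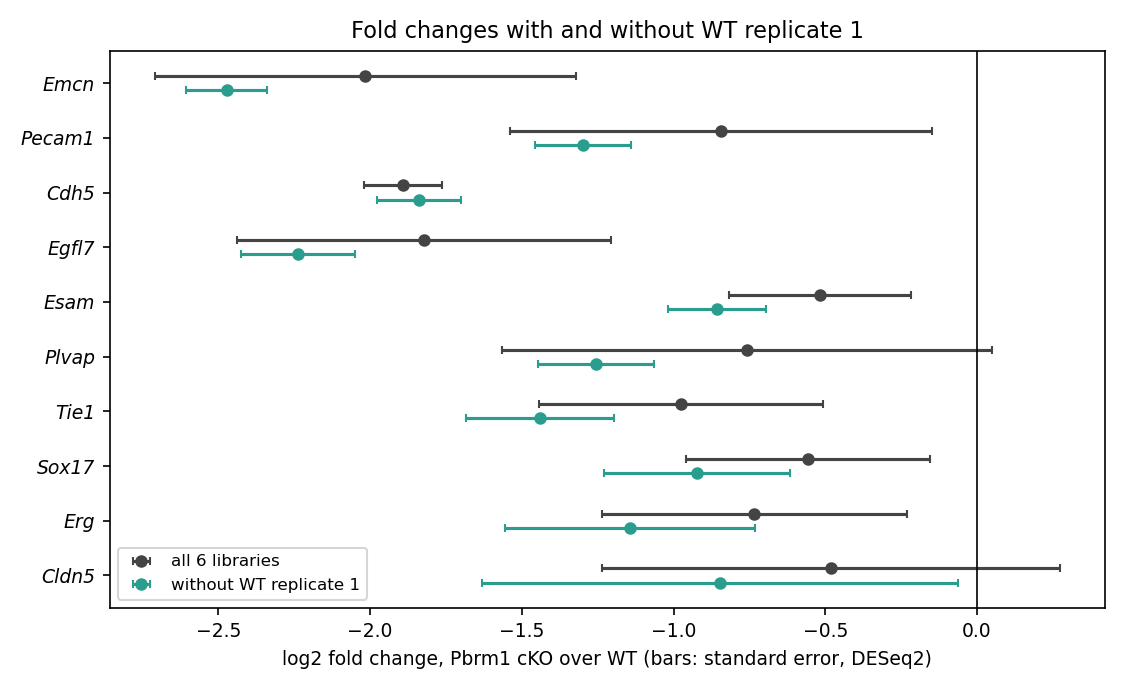
Log2 fold change of Pbrm1 cKO over WT from DESeq2 for each marker (points) with its standard error (bars), from all 6 libraries and without WT replicate 1. Without that library every value except that of Cdh5 moves further below 0 and its error narrows except for Cdh5 and Cldn5, as for Emcn from -2.02 (SE 0.69) to -2.47 (SE 0.13).

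The spread behind these fits lay mostly in 1 library. In WT replicate 1, 9 of the 10 markers were at most 0.5 times the mean of WT replicates 2 and 3, against 4.77% of the 12715 genes that averaged 20 or more normalized counts. Cldn5 does not reach that average, and 8 of the 9 markers that do were at most 0.5 times that mean. Across all markers but Cdh5 the ratio ran from 0.12 for Plvap to 0.37 for Esam. WT replicate 1 held the lowest of all 6 values for 7 markers, and Cdh5, Emcn and Egfl7, the markers called lower with all 6 libraries, were the ones for which it did not. The summed markers were at 1559 normalized counts in WT replicate 1, 4741 and 4014 in WT replicates 2 and 3, and 1316, 1411 and 1260 in the Pbrm1 cKO libraries. Cdh5 alone made up 774 of the 1559. Without Cdh5 the markers summed to 786 in WT replicate 1, 4029 and 3337 in WT replicates 2 and 3, and 1126, 1219 and 1059 in the Pbrm1 cKO libraries, so that WT replicate 1 was lowest.

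Marker lists of other cell types also differed between libraries, and their part in the endothelial results was not tested. Leukocyte markers, some of which accompany Pecam1 on blood cells, were called higher for 13 of the 14 tested of 16 genes (12 of 13 without WT replicate 1). Their sum was 4095 in WT replicate 1, at most 9024 in the other WT libraries and 36929 to 38527 in Pbrm1 cKO. WT replicate 1 was thus lowest of the 6 libraries in this sum and in Pecam1, while the Pbrm1 cKO libraries were high in this sum. Platelet genes summed to 229 to 732 in WT against 710 to 876 in Pbrm1 cKO, with WT replicate 1 lowest, with none called by DESeq2 or edgeR, none at an unadjusted p under 0.05 in either, and 1 called lower by limma voom. Gp9, a defining platelet gene, had no counts.

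Epithelial genes, relevant to Sox17, summed to 2049 in WT replicate 1, to 3577 and 3820 in the other WT libraries and to 4128 to 4289 in Pbrm1 cKO, and 5 of the 17 tested were called higher (4 higher and 1 lower without WT replicate 1). Mural cells, the pericytes that wrap capillaries, had 3 of 10 genes called lower and 1 higher, and 7 lower and 2 higher of the 9 tested without WT replicate 1 (6 lower and 2 higher under limma voom with all libraries), with sums of 9579 to 10442 in WT against 10526 to 11696 in Pbrm1 cKO. Pdgfrb and Cspg4 held most of that sum, which was 9642 in WT replicate 1. By gene, 7 of the 10 mural genes were lower in WT replicate 1 than in both other WT libraries and lowest there of all 6 libraries, and 5 were at most 0.5 times the mean of WT replicates 2 and 3. One of these was Rgs5, a gene enriched in pericytes and named here after its values were seen, at 103 normalized counts against 570 and 574. Smooth muscle genes, with 7 of 12 lower (8 without WT replicate 1) and sums of 63250 to 68697 in WT against 57616 to 59572 in Pbrm1 cKO, had their highest sum in WT replicate 1, although 6 of the 12 were lower there than in both other WT libraries. The stromal sum was also highest there (139142), with 3 of 14 genes lower than in both other WT libraries, and with 7 of 14 lower and 1 higher in Pbrm1 cKO (9 and 1 without WT replicate 1). Erythroid genes summed to at most 8.65 in WT and to 136 to 260 in Pbrm1 cKO, with 4 of the 4 tested called higher, also without WT replicate 1. Mesothelial genes summed to 638 to 694 in WT against 935 to 997 in Pbrm1 cKO, with 1 of 5 called higher, also without WT replicate 1.

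**Figure D3:**
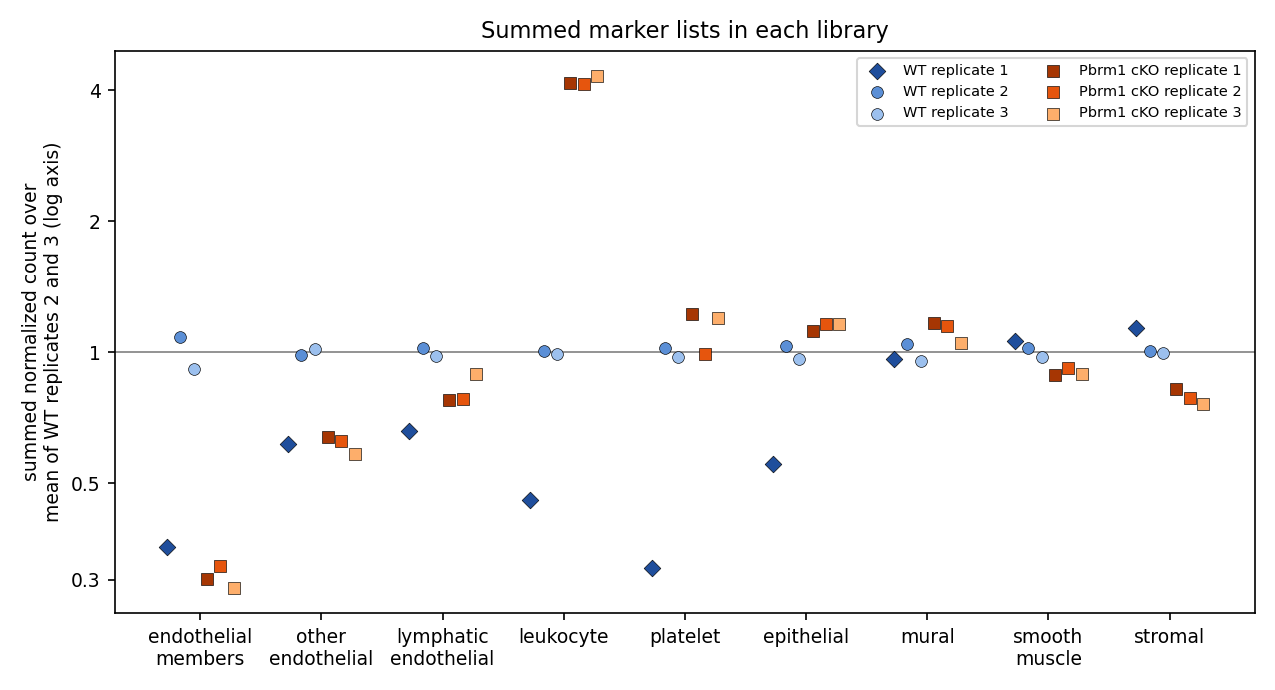
Summed normalized count of each marker list in each library, divided by the mean of WT replicates 2 and 3 (log axis, 1 point per library). The endothelial markers of WT replicate 1 sum to 1559, above Pbrm1 cKO (1260 to 1411) with Cdh5 and below it without Cdh5 (786 against 1059 to 1219), whereas the leukocyte sums of Pbrm1 cKO (36929 to 38527) lie apart from all WT libraries.

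A list of 25 other endothelial genes, none of them among the 10, showed the same split of the libraries. Each of the 25 was lower in WT replicate 1 than in WT replicates 2 and 3, and 21 were at most 0.5 times their mean, against 4.77% of the genes that averaged 20 or more normalized counts. A few of the 21 averaged fewer than 20 in WT replicates 2 and 3, so the comparison is not like for like in them. Of the 24 tested, 4 were lower (Flt1, Clec14a, S1pr1 and Cyyr1) and 2 were higher (Vwf and Fli1) in Pbrm1 cKO, against 15.2% and 15.9% of all tested genes, so the lower share was near that background. Without WT replicate 1 the counts were 18 and 2 of 24, against 17.2% and 18.3%. Flt1, a receptor for VEGF, had 167, 340 and 303 normalized counts in WT against 179, 190 and 161 in Pbrm1 cKO (log2 fold change -0.61, DESeq2 adjusted p = 0.0425, and -0.86 and 4.91e-06 without WT replicate 1). Kdr, the main signaling receptor for VEGF, had 223, 588 and 616 in WT against 318, 368 and 377 in Pbrm1 cKO (log2 fold change -0.43, DESeq2 adjusted p = 0.532, which became -0.76 and 2.45e-07 without WT replicate 1). Tek, the angiopoietin receptor that pairs with Tie1, had 21.4, 158 and 135 in WT against 45.4, 70.3 and 58.2 in Pbrm1 cKO (log2 fold change -0.85, DESeq2 adjusted p = 0.46, which became -1.33 and 8.49e-06 without WT replicate 1). In these receptor genes, as in Tie1, WT replicate 1 was lowest or, for Flt1, within the range of Pbrm1 cKO.

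Clec14a, a C-type lectin of the endothelial surface, had 25.7, 149 and 105 normalized counts in WT against 28.6, 27.2 and 21.6 in Pbrm1 cKO (log2 fold change -1.85, DESeq2 adjusted p = 0.00126, and -2.30 and 4.07e-11 without WT replicate 1). Cyyr1 had 7.48, 46.6 and 44.3 in WT against 7.89, 11.2 and 7.51 in Pbrm1 cKO (log2 fold change -1.88, DESeq2 adjusted p = 0.0151, and -2.35 and 3.52e-05 without WT replicate 1). As for Emcn, WT replicate 1 lay at the level of the Pbrm1 cKO libraries in both, and both passed the test. Cd34, a sialomucin of capillaries and progenitor cells, had 459, 1331 and 1105 in WT against 526, 450 and 472 in Pbrm1 cKO (log2 fold change -0.999, DESeq2 adjusted p = 0.072, which became -1.34 and 6.12e-24 without WT replicate 1). Sox18, the SOX F relative of Sox17, had 13.9, 95.4 and 95.1 in WT against 26.6, 44.7 and 29.1 in Pbrm1 cKO (log2 fold change -1.02, DESeq2 adjusted p = 0.153, which became -1.50 and 6.45e-05 without WT replicate 1).

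Vwf (von Willebrand factor, stored by endothelial cells and platelets) went the other way. Its normalized counts were 21.4, 67.7 and 69.2 in WT against 192, 210 and 187 in Pbrm1 cKO, with no overlap (log2 fold change 1.90, SE 0.33, DESeq2 adjusted p = 1.01e-07, and 1.52 and 1.85e-10 without WT replicate 1). Fli1, an ETS factor of endothelial cells and leukocytes, had 108, 169 and 163 in WT against 241, 232 and 228 in Pbrm1 cKO (log2 fold change 0.67, DESeq2 adjusted p = 0.00359, and 0.49 and 0.0182 without WT replicate 1). Vwf and Fli1 were nonetheless below WT replicates 2 and 3 in WT replicate 1, at 0.31 and 0.65 times their mean. S1pr1 and Eng are also expressed outside endothelium, and WT replicate 1 was at 0.81 and 0.76 times the mean of the other WT libraries for them.

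Lymphatic endothelial genes were sparse. None of the 4 with counts was called by DESeq2, and 1 (Lyve1) had an unadjusted p under 0.05, while edgeR and limma voom each called 1 lower. Lyve1, the hyaluronan receptor of lymphatic vessels and of some macrophages, had 27.8, 41.1 and 34.6 in WT against 16.8, 19.2 and 16.9 in Pbrm1 cKO (log2 fold change -0.96, DESeq2 adjusted p = 0.0526, and 0.0468 without WT replicate 1). Prox1, the transcription factor that defines lymphatic endothelium, had at most 18.8 normalized counts, and Ccl21a had none.

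To ask which markers moved beyond the endothelial genes as a group, each was divided by the geometric mean of 23 other endothelial genes in the same library. This is a ratio within a library and shows unequal change only. That mean was 44.1, 180 and 172 normalized counts in WT replicates 1 to 3, against 79.4, 88.5 and 73.8 in Pbrm1 cKO. The relative level of Emcn was 6.21, 8.97 and 7.71 in WT against 3.37, 3.21 and 3.29 in Pbrm1 cKO. All WT libraries lay above all Pbrm1 cKO libraries, WT replicate 1 included, and the means differed 2.32-fold (7.63 ± 1.38 against 3.29 ± 0.0778, SD, n = 3 each; two-sided exact permutation p = 0.1, the smallest that 3 against 3 libraries can give). The relative level of Egfl7 was 2.74, 3.05 and 2.59 in WT against 1.11, 1.34 and 1.47 in Pbrm1 cKO. This was a 2.14-fold difference (2.79 ± 0.234 against 1.31 ± 0.187, SD, n = 3 each; two-sided exact permutation p = 0.1). Here WT replicate 1 no longer stood apart from the other WT libraries. Cdh5 also did not overlap, but its relative level was 17.5 in WT replicate 1 against 3.96 and 3.93 in the other WT libraries and 2.40, 2.17 and 2.72 in Pbrm1 cKO. Such separation was not particular to these markers, since genes of the divisor showed it too. Relative levels without overlap were higher in WT for Clec14a (2.10-fold), Cyyr1 (2.10-fold), Adgrl4 (1.73-fold) and Ecscr (1.59-fold). They were higher in Pbrm1 cKO for Vwf (5.80-fold), Fli1 (2.02-fold) and Ptprb (1.40-fold). The divisor also holds S1pr1 and Eng, which are expressed outside endothelium.

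For the other 7 markers the relative levels overlapped between groups, with WT over Pbrm1 cKO between 0.90-fold and 1.11-fold. The relative level of Pecam1 was 3.10, 4.58 and 3.70 in WT against 3.75, 3.75 and 3.55 in Pbrm1 cKO, and that of Tie1 was 0.679, 0.931 and 0.967 against 0.708, 0.650 and 0.966. A relative level without overlap was found for 3 of the 10 markers and for 14.5% of all 17474 tested genes. Without WT replicate 1 the relative levels of Esam (2.27 and 2.09 in WT against 2.73, 2.56 and 2.61 in Pbrm1 cKO) and Sox17 (0.524 and 0.471 against 0.584, 0.596 and 0.534) did not overlap either, both being higher in Pbrm1 cKO. That made 5 of the 10 markers, against 89.4% of the 15502 genes tested then. With all 6 libraries, differences within this spread could not be detected for the 7.

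Dividing by a single marker gave a like picture for Emcn and Egfl7. The ratio of Emcn to Pecam1 raw counts was 2.00, 1.96 and 2.08 in the WT libraries against 0.897, 0.858 and 0.928 in the Pbrm1 cKO libraries. WT replicate 1, which held about as few Emcn counts as the Pbrm1 cKO libraries, had the Emcn to Pecam1 ratio of the other WT libraries. The ratio of Egfl7 to Pecam1 was 0.883, 0.666 and 0.700 in WT against 0.295, 0.359 and 0.416 in Pbrm1 cKO. With Tie1 as the divisor, Emcn was at 9.14, 9.64 and 7.97 in WT against 4.75, 4.94 and 3.41 in Pbrm1 cKO, and Egfl7 at 4.04, 3.28 and 2.68 against 1.56, 2.07 and 1.53. Neither gene overlapped between groups with either divisor. Nor did Cdh5, at 5.66, 0.864 and 1.06 over Pecam1 in WT against 0.639, 0.578 and 0.767 in Pbrm1 cKO. Pecam1 is also found on leukocytes, whose markers summed to 4095 to 9024 in WT and 36929 to 38527 in Pbrm1 cKO. The part of leukocytes in the Pecam1 ratios was not tested, and no share over all genes was computed for such ratios. By contrast the ratio of Plvap to Pecam1 was 0.258, 0.376 and 0.400 in WT against 0.394, 0.371 and 0.437 in Pbrm1 cKO, with overlap, and that of Erg to Pecam1 ran from 0.0538 to 0.0938 in WT and from 0.0578 to 0.0860 in Pbrm1 cKO.

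**Figure D4:**
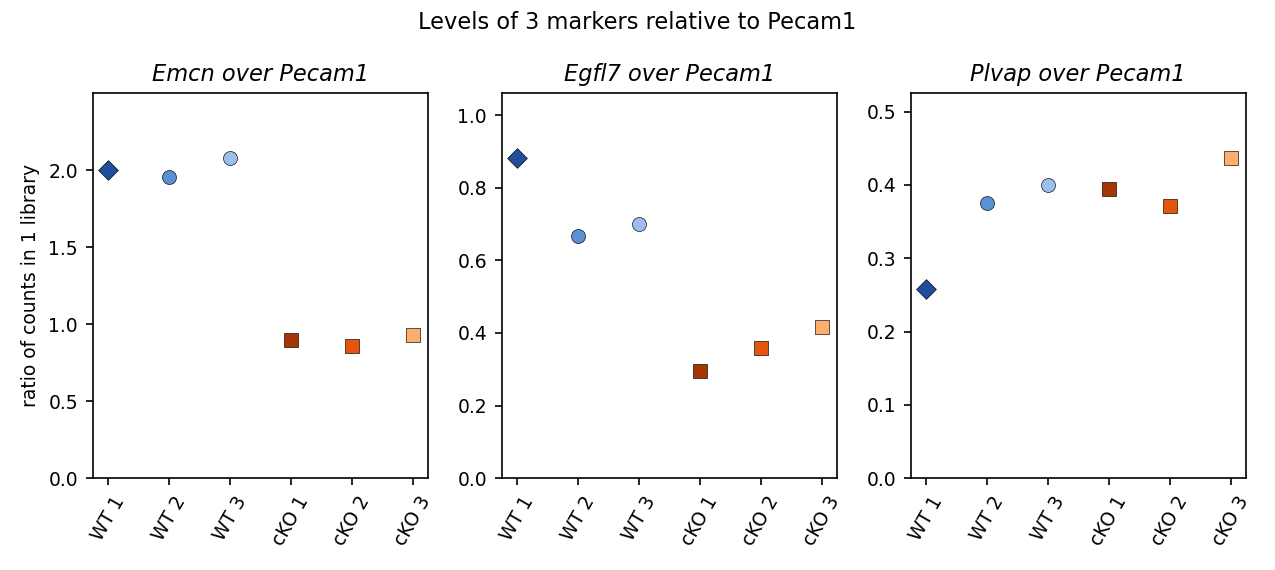
Ratio of the counts of Emcn, Egfl7 and Plvap to those of Pecam1 in each library (linear axes from 0, 1 point per library). The Emcn ratio is 1.96 to 2.08 in the WT libraries against 0.858 to 0.928 in Pbrm1 cKO, while the Plvap ratios of the groups overlap. Pecam1 is also found on leukocytes, whose markers are higher in Pbrm1 cKO.

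Levels of different genes were compared as RPKM, counts divided by exon length and by the library total. In WT replicates 2 and 3, the order by mean RPKM was Emcn (18.5), Cdh5 (11.2), Plvap (9.64), Egfl7 (9.44), Esam (9.09), Pecam1 (7.97), Tie1 (2.30), Erg (1.48), Sox17 (1.25) and Cldn5 (0.606). Emcn at 20.3 and 16.6 RPKM was clear of the next gene, and Cdh5 at 11.5 and 10.9 was clear of those after it, whereas Plvap, Egfl7, Esam and Pecam1 overlapped across these 2 libraries. In Pbrm1 cKO Esam ranked first, at 5.07 ± 0.388 RPKM (SD, n = 3), then Plvap at 4.08 ± 0.126. Emcn (3.36 ± 0.240), Pecam1 (3.27 ± 0.362) and Cdh5 (3.17 ± 0.118) were within each other's spread, and Egfl7 followed at 2.02 ± 0.307. In WT replicate 1 Cdh5 ranked first at 12.4 RPKM, and the next marker was Emcn at 3.41.

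The pattern shared by the markers was described by the mean standardized log2 profile of the 9 that averaged 20 or more normalized counts, over the 6 libraries. Among 10986 genes with a mean of at least 50, the 5 outside all lists with the highest Pearson correlation to this profile were Rasgrp3, Tm4sf1, Hey1, Rdh10 and Vwa1. Their correlations ran from 0.991 (Vwa1) to 0.997 (Rasgrp3), over 6 libraries, and serve as a description only, since the markers share these libraries and their scaling. Listed genes were left out of these 5. Among listed genes the mural genes Mcam (rank 2, correlation 0.996) and Rgs5 (rank 5, 0.994) and the endothelial gene Adgrl4 (rank 3) came ahead of every marker. Rasgrp3 had 32.1, 172 and 138 normalized counts in WT against 45.4, 44.7 and 40.3 in Pbrm1 cKO, and Hey1, a Notch target, had 27.8, 206 and 191 against 57.2, 53.5 and 52.5. Both thus followed the order of Tie1 and Pecam1. Cdh5, although 1 of the 9 genes of the profile, ranked only 2486 by this measure (correlation 0.48). The other 7 markers that reached a mean of 50 ranked from 25 (Esam) to 152 (Plvap). These 7 are themselves part of the profile, which raises their correlations with it by construction, so their ranks are no support for a shared pattern.

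Promoter sequence was read from RefSeq windows of 300 bases (250 before and 50 after a gene start, GRCm38.p6). Windows were found for 5 of the 10 markers (Emcn, Tie1, Cldn5, Egfl7 and Erg, 9 windows in all). Because ERG is an ETS factor and SOX17 a SOX factor, the windows were searched on both strands for the ETS hexamers AGGAAG and CGGAAG and the SOX hexamers ACAATG and ACAAAG. The windows of Emcn and Tie1 and the first of Egfl7 are shown, since the groups did not overlap for Emcn and Egfl7 relative to the other endothelial genes, and overlapped for Tie1. Capitals mark the ETS hexamers, which read CTTCCT where the match is on the other strand.
Emcn, chr3:137340828-137341127, plus strand: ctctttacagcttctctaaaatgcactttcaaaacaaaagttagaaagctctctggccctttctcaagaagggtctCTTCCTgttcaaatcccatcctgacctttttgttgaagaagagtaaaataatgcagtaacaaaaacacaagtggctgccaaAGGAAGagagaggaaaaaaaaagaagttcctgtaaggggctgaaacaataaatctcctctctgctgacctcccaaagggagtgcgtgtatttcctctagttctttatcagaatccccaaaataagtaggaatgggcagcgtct
Egfl7, chr2:26580833-26581132, plus strand: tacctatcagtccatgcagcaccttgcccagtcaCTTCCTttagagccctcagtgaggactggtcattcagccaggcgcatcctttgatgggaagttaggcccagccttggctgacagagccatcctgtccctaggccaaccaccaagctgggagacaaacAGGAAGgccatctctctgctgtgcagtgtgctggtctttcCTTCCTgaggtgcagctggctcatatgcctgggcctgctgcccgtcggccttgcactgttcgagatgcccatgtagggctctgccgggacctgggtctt
Tie1, chr4:118489800-118490099, minus strand: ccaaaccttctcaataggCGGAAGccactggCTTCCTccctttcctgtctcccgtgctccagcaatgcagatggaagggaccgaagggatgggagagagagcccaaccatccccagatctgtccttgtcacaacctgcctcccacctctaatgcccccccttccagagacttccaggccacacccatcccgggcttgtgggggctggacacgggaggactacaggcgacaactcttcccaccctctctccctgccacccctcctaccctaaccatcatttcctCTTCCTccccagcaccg

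The Emcn window held 2 ETS matches, and the Egfl7 and Tie1 windows held 3 each. An ETS hexamer was present in 5 of the 9 windows and in 46.5% of 32851 promoter windows of the same length, and 15.9% of those held 2 or more. A SOX hexamer was present in 2 of the 9 windows, the third of Egfl7 and the third of Erg, against 28.6% of all windows. Emcn and Egfl7 thus held ETS matches in these windows, as did Tie1.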

How the data were processed

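The deposited table holds raw counts per gene. To make it, the authors used cutadapt for trimming, HISAT2 for mapping to GRCm38 and featureCounts 1.6.4, set to reverse strand, for counting on GENCODE release 18. A total RNA kit primed with random and poly(T) oligonucleotides is named by the labels, whereas purification of mRNA is named by the study's methods. Symbols matched 99.7% of identifiers.

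Wald tests were run on the counts in DESeq2 1.42.0 under R 4.3.3 (size factors by median of ratios, no covariates, all 6 libraries, Benjamini-Hochberg adjustment over all genes tested, threshold 0.05), without shrinkage of fold changes. Replicates are separate samples per the labels, and the study calls the replicates of its sequencing tracks biological without saying which animals or cultures each came from, so p-values measure the spread between these samples. The 3 libraries of a group differed by more than sampling noise (median ratio to noise 1.58 to 9.79). A pseudocount of 0.5 was used in the geometric mean of the other endothelial genes with a mean of at least 10. RPKM used library totals and the exon lengths of the table. Counts of 3 correspond to 0.164 to 0.226 CPM, and intervals and floors cover counting error only, since the reads carry no molecular identifiers.

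The rule for named genes takes Pbrm1, the 10 markers, the other endothelial genes with a mean of at least 10, lymphatic genes with counts, at most 2 of each other list and the 5 genes most like the markers' profile. Rgs5 and Mcam were named outside this rule. Members and lists were chosen with earlier results of these data known. The alternatives were edgeR 4.0.16, limma 3.58.1 voom with sample quality weights, TMM scaling, 2 filters, an adjusted p of 0.1, the replicate block, leaving out each library, and size factors from the other endothelial genes. The scripts were tested on simulated data.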

Additional observations from a re-analysis of the deposited data

How the results depend on the processing

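The counts of markers called lower depended on the libraries and on the test. In DESeq2 as reported, 3 of 10 markers and 2658 of 17474 genes were lower. Limma voom with sample quality weights changes both the test and the weighting. It called 7 of the 9 markers it tested lower (Cdh5, Emcn, Egfl7, Pecam1, Tie1, Esam and Erg). It called 3493 of 14162 genes lower, so calls rose over all genes too. Leaving out 1 library gave 1 to 9 markers. The genes called lower then ran from 1790 of 15961 (without Pbrm1 cKO replicate 2) to 2660 of 15502 (without WT replicate 1). The highest number of markers came without WT replicate 1 and the lowest, Cdh5 alone, without any 1 of the other 5 libraries. The other endothelial genes, 4 lower as reported, had 13 lower under limma voom, 2 with the replicate block and 1 to 18 on leaving out 1 library. Over all genes, 1828 of 14713 were lower with the replicate block, and the numbers for the other settings are those just given. The median log2 fold change of the markers kept its sign, from -1.28 to -0.48, in every alternative except the next.

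Size factors from the other endothelial genes were chosen after seeing the data. They turned the median to 0.17 and left 0 of 10 markers called (1 lower at an unadjusted p under 0.05). Of all 19125 genes tested in this setting, only 88 were called lower and 565 higher, so the loss of calls was not particular to the markers. Pecam1 (0.16), Tie1 (0.053), Cldn5 (0.37), Esam (0.24), Erg (0.18), Sox17 (0.26) and Plvap (0.35) were then above 0 on the log2 scale, and Cdh5 (-1.66), Emcn (-1.01) and Egfl7 (-0.89) stayed below it without passing. By construction these size factors follow the level of the other endothelial genes, from 0.431 in WT replicate 1 to 1.89 in WT replicate 2, which leaves large differences between libraries in all other genes. Without WT replicate 2, Cldn5 was at 0.0059 (range on leaving out 1 library -0.91 to 0.0059), and the cause was not tested.

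With the replicate block, 2 of 10 markers (Cdh5 and Egfl7) and 1828 of 14713 genes were lower, and Emcn did not pass (DESeq2 adjusted p = 0.0666). Same-numbered libraries did not deviate together over all genes (correlations 0.114, -0.0515 and 0.0028), so the numbers were not taken as pairs. Cdh5 passed in 13 of 14 alternatives, Egfl7 in 8 and Emcn in 7. Depth limits Cldn5, with at most 14 counts in a library, and Erg, with at most 49.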
